A study of Mus musculus with 12 samples.

Results

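The 8 genes described here encode the enzymes that unsaturate and lengthen fatty acids in mouse liver, the stearoyl-CoA desaturases Scd1 and Scd2, the polyunsaturated fatty acid desaturases Fads1 and Fads2, and the elongases Elovl1, Elovl2, Elovl5 and Elovl6. They were chosen by symbol in the annotation of the array, where each of the 8 had exactly 1 transcript cluster, a set of probes summarised to 1 value. They are 8 of 19938 genes that the annotation named by a single symbol, on 21789 of the table's 35557 clusters. Total liver RNA of 12 mice was hybridised to Affymetrix mouse Gene 1.0 ST arrays, with 3 mice in each of 4 groups: mutant euthyroid, control euthyroid, mutant hypothyroid and control hypothyroid. The series calls its mutant line L-NCoR∆ID. From background knowledge of this line, the hepatocytes make a nuclear receptor corepressor (NCoR) that lacks domains for binding nuclear receptors, while other liver cells keep the normal protein. The labels name no promoter or Cre, no strain, sex or age, and no means by which mice were made hypothyroid. Nor do they say that mice were housed or handled apart, and p-values here reflect only how far mice within groups vary.

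As background, liver makes palmitate from acetyl-CoA, and the elongase cycle in the endoplasmic reticulum adds carbon pairs to it. ELOVL6 turns palmitate into stearate, and the SCD enzymes then place the first unsaturated bond, giving palmitoleate and oleate for triglyceride. Essential fatty acids from the diet take another route: FADS2 and FADS1 add further unsaturated bonds, ELOVL5 and ELOVL2 lengthen the products, and arachidonate and docosahexaenoate result. ELOVL1 makes very long saturated and monounsaturated chains for sphingolipids. Thyroid hormone receptors bind NCoR when hormone is absent, and the lipogenic genes are also known targets of the factors SREBP-1c, ChREBP and LXR.

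All values are log2 signals from RMA, in which a difference of 1 is a doubling of signal, and levels of different genes are not compared because each has its own probes. Array medians lay between 4.16 and 4.32. The 7 measured hepatocyte markers (8 listed) were above the array median on every array. On the first principal component (28% of the variance) the extremes were replicate 7 of the hypothyroid mutants (-56.7) and replicate 14 of the euthyroid controls (71.9), called both outlying arrays here. The SD of all log2 values on an array ran from 2.32 to 2.35 in hypothyroid mutants and from 2.29 to 2.30 in hypothyroid controls, with no overlap, and from 2.26 to 2.31 in euthyroid mutants and 2.22 to 2.28 in euthyroid controls. Markers of Kupffer cells, the liver's macrophages, also moved with genotype: 10 of 10 were higher on average in mutants. Of these, 1 was called (Adgre1), against 0.904% of all clusters called higher. Their summed level ran from 9.79 to 10.87 in euthyroid mutants and 9.42 to 9.66 in euthyroid controls, and from 8.94 to 9.85 in hypothyroid mutants and 8.90 to 9.04 in hypothyroid controls. The part of the Kupffer cell differences in the results below was not tested. Fits with array SD as a covariate and fits without both outlying arrays are given below. Of 4 measured adipocyte markers (5 listed), Adipoq, Lep and Retn were below the array median on every array. The other, Plin1, was not, with group means from 4.09 in hypothyroid mutants to 4.63 in euthyroid controls. In whole liver, fewer cells of a type and less RNA per cell cannot be told apart.

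Scd1, Scd2 and Elovl6, which serve monounsaturated fatty acid synthesis, were called higher in mutants averaged over thyroid states. Fads1, Fads2, Elovl2 and Elovl5, of the polyunsaturated route, were not called for genotype. In euthyroid mice, 3 of the 8 genes rose in mutants, Elovl6 4.01-fold, Scd2 2.91-fold and Scd1 2.17-fold, and none fell. In hypothyroid mice 2 rose, Scd2 5.01-fold and Elovl6 3.94-fold. A gene was called at a Benjamini-Hochberg adjusted p under 0.05 in limma, adjusted over all 21789 clusters. At that threshold 0.124% of all clusters rose and 0.00459% fell in euthyroid mutants, and 0.216% rose and 0.0459% fell in hypothyroid mutants. The groups did not overlap, mutants above, for 4 of the 8 genes in euthyroid mice and 4 in hypothyroid mice, against 5.05% and 12.4% of all clusters. None of the 8 had mutants wholly below controls, where 5.35% and 10.2% of all clusters did. Averaged over thyroid states 3 of the 8 were called, against 1.14% of all clusters. At an unadjusted p under 0.05 that comparison counted 5 of the 8, Fads2 and Elovl2 besides the 3 called, against 16.7% of all clusters. The same threshold counted 5 in hypothyroid mice, Scd1, Elovl2 and Elovl5 besides the 2 called, against 10.4% of all clusters. In euthyroid mice it counted only the 3 called, against 8.13%. The median difference of the 8 was 0.20 in euthyroid and 0.56 in hypothyroid mice, where that of all clusters was 0.00016 and -0.020.

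**Figure D1:**
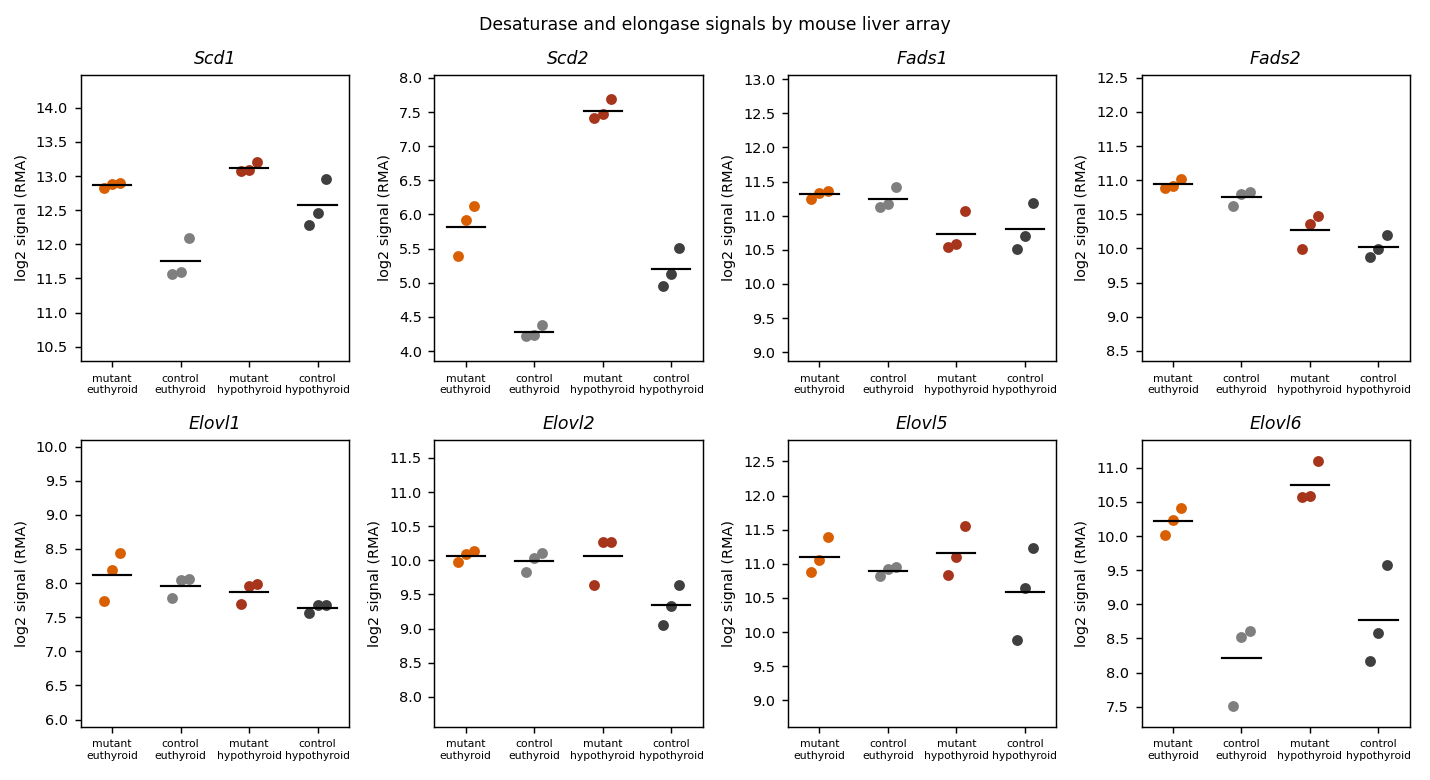
Log2 RMA signal of each gene (y axis, each panel with the same span of log2 units at its own level) in the 3 mice of each group (x axis). Points are mice and lines are group means. Scd2 and Elovl6 show the widest ranges over the 12 mice, 3.47 and 3.58.

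The start regions of 3 genes are shown because the genes differ in their changes: Elovl6 rose in mutants, Fads2 fell in hypothyroid mice, and Elovl5 was called in neither comparison. RefSeq windows (GRCm38.p6) of 300 bases, 250 before the annotated start and 50 after it, were matched by symbol for 5 of the 8 genes. No window was available for Scd1, Scd2 or Fads1, so their start regions were not examined. Each is written 5′ to 3′ along the gene. Capitals mark matches on either strand to AGGTCA (the core motif of nuclear receptors such as the thyroid hormone receptor), to that motif as a direct repeat spaced by 4 bases, to TCACNCCAC (core of the sterol regulatory element), to CACGTG (the E-box), to ATTGG (the inverted CCAAT box) and to GGGCGG (the GC box). The Elovl6 window is chr3:129532136-129532435 (+ strand), that of Fads2 chr19:10101454-10101753 (- strand) and that of Elovl5 chr9:77917115-77917414 (+ strand).
Elovl6: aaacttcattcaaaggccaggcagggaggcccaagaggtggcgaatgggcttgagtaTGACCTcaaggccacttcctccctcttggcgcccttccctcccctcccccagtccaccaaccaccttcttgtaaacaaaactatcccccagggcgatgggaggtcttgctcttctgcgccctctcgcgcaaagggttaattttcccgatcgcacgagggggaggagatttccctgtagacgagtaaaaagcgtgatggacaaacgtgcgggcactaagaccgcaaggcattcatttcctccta
Fads2: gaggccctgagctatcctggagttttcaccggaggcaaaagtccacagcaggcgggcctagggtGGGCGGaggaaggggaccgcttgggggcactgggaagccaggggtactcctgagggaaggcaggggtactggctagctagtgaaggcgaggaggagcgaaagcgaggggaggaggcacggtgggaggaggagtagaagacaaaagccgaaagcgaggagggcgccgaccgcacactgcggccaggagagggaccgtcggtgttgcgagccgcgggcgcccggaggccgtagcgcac
Elovl5: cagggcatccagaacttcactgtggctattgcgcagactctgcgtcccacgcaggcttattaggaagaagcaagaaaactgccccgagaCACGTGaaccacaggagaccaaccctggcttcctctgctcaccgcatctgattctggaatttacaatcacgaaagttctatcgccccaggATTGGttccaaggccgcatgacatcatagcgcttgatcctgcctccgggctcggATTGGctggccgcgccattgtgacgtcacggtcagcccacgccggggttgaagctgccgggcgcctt
Elovl6 held 1 AGGTCA on the opposite strand, 193 bases before the start, a match that 16.3% of all 32851 windows hold at least once. Among the 7 windows of the 5 genes, 2 held AGGTCA. The other is a window of Elovl1, not shown, with the match 95 bases before its start, and Elovl1 was not called in any comparison. Fads2 held 1 GGGCGG, 186 bases before its start (35.7% of windows). Elovl5 held CACGTG 161 bases before the start (7.15% of windows) and ATTGG 71 and 17 bases before it (37.4% of windows). None of these matches overlap. The direct repeat (0.0152% of windows) and TCACNCCAC (1.24%) matched in none of the 7 windows of the 5 genes, which says only that these letters are absent there.

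Scd1, the main stearoyl-CoA desaturase of adult liver (cluster 10467979), had 12.88, 12.90 and 12.82 in euthyroid mutants and 12.09, 11.57 and 11.59 in euthyroid controls. In hypothyroid mice it had 13.09, 13.07 and 13.20 in mutants and 12.46, 12.96 and 12.29 in controls. Mutants lay above controls in both thyroid states without overlap, and were tightly grouped (SD 0.042 and 0.071, n = 3 each) beside controls (SD 0.29 and 0.35, n = 3 each). The mean of Scd1 over all arrays, 12.58, lay above that of 99.9% of clusters. Whether signal at that level understates differences was not tested. The mutant difference was 1.12 ± 0.17 SE in euthyroid mice (adjusted p = 0.0171, limma), a rise. In hypothyroid mice it was 0.55 ± 0.17 (adjusted p = 0.28), not called. Averaged over thyroid states Scd1 rose by 0.84 ± 0.12 (adjusted p = 0.00346), and this call held without any single array (largest adjusted p 0.0161). With array SD as a covariate the averaged rise had an adjusted p of 0.119. The euthyroid call was lost without mutant replicate 2 (adjusted p 0.0836), 3 (0.0687) or 4 (0.0772) or control replicate 14 (0.0723) or 15 (0.0945), and without both outlying arrays (0.0838). It was also lost with every cluster tested and with the compared groups fitted alone (adjusted p up to 0.106).

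Scd2, a close relative of Scd1 that is prominent in other tissues and in young animals (cluster 10463355), had the smallest p of the 8 for genotype. Its signal was 5.92, 6.13 and 5.40 in euthyroid mutants and 4.21, 4.38 and 4.24 in euthyroid controls. In hypothyroid mice it was 7.47, 7.69 and 7.41 in mutants and 4.96, 5.50 and 5.13 in controls. Euthyroid controls sat at the array medians, and the table gives no measure of background. If that signal is not above background, folds taken against it are lower bounds. The hypothyroid mutants were the highest, and mutants and controls did not overlap within either thyroid state. The rise was 1.54 ± 0.18 in euthyroid mice (adjusted p = 0.00274) and 2.33 ± 0.18 in hypothyroid mice (adjusted p = 2.49e-05), the 4th and 2nd smallest p-values among all clusters. Averaged over thyroid states it was 1.93 ± 0.13 (adjusted p = 2.8e-06), the smallest p of the 21789. Without any single array the averaged rise stayed between 1.85 and 2.04, and these 3 calls were kept in every alternative run, array SD as a covariate included. Scd1 to Scd4 lie next to each other in the order Scd3, Scd2, Scd4, Scd1 on chromosome 19. As relatives of similar sequence they may share probes, which was not tested. In the averaged comparison Scd3 (-0.04) and Scd4 (-0.02) were not called.

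Elovl6, the palmitate elongase (cluster 10495993), had 10.23, 10.01 and 10.41 in euthyroid mutants and 8.60, 7.52 and 8.52 in euthyroid controls. Hypothyroid mice had 10.59, 10.57 and 11.10 in mutants and 8.17, 9.57 and 8.59 in controls. All 6 mutants exceeded all 6 controls, the single gene of the 8 for which this held (0.643% of all clusters). Controls were widely spread (SD 0.61 and 0.72), with euthyroid replicate 14 low and hypothyroid replicate 18 high. The rise was 2.003 ± 0.32 in euthyroid mice (adjusted p = 0.0206) and 1.98 ± 0.32 in hypothyroid mice (adjusted p = 0.0154). Averaged over thyroid states it was 1.99 ± 0.23 (adjusted p = 0.000472), between 1.82 and 2.19 without any single array, and was called in all of the alternatives. The euthyroid call was lost without mutant replicate 2 (adjusted p 0.0913), 3 (0.0509) or 4 (0.116) or control replicate 14 (0.0723). The hypothyroid call was lost without mutant replicate 7 (0.0853) or control replicate 17 (0.0999) or 20 (0.0824). With array SD as a covariate the euthyroid and hypothyroid rises had adjusted p of 0.0648 and 0.29. Both calls were also lost with every cluster tested, and the euthyroid call without both outlying arrays.

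**Figure D2:**
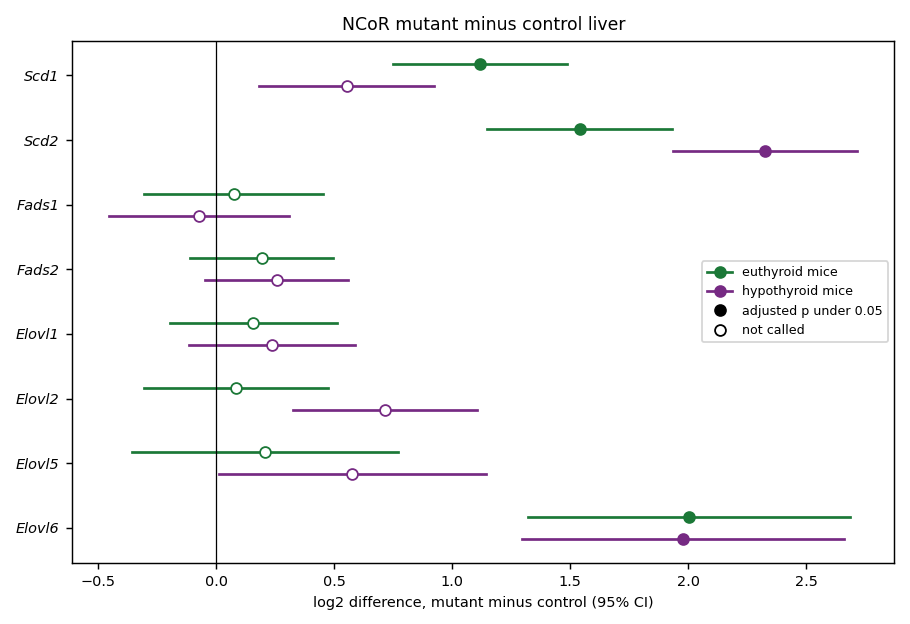
Log2 difference, mutant minus control (x axis, with 95% confidence intervals of the limma fit), for the 8 genes (rows) in euthyroid and hypothyroid mice. Filled points have an adjusted p under 0.05: Scd1, Scd2 and Elovl6 in euthyroid mice, and Scd2 and Elovl6 in hypothyroid mice.

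The desaturases and elongases of the polyunsaturated route, Fads2, Fads1, Elovl5 and Elovl2, were not called for the mutation. Fads2, the desaturase of the first step (cluster 10465895), had 11.02, 10.89 and 10.91 in euthyroid mutants and 10.63, 10.79 and 10.83 in euthyroid controls. In hypothyroid mice it had 10.00, 10.36 and 10.47 in mutants and 9.87, 10.19 and 10.00 in controls. Euthyroid mutants lay just above euthyroid controls, and the hypothyroid groups overlapped. Its averaged difference was 0.22 ± 0.10 (95% interval 0.0087 to 0.44, adjusted p = 0.281).

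Fads1, the desaturase of the later step and the neighbour of Fads2 on chromosome 19 (cluster 10461439), had 11.24, 11.34 and 11.36 in euthyroid mutants and 11.17, 11.13 and 11.42 in euthyroid controls. Its hypothyroid values were 10.54, 10.59 and 11.06 in mutants and 10.71, 11.18 and 10.52 in controls. Genotypes overlapped in both states. The averaged difference was 0.00059 ± 0.13, with a 95% interval from -0.27 to 0.27 (adjusted p = 0.999). It was below 0 after quantile normalization (-0.037), with array SD as a covariate (-0.070) and without both outlying arrays (-0.11).

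Elovl5, which lengthens polyunsaturated and some monounsaturated chains (cluster 10587284), had 11.39, 11.05 and 10.88 in euthyroid mutants and 10.96, 10.82 and 10.92 in euthyroid controls. In hypothyroid mice it had 10.84, 11.10 and 11.55 in mutants and 10.64, 11.23 and 9.88 in controls. Hypothyroid controls were widely spread (SD 0.68), and genotypes overlapped in both states. Its averaged difference was 0.39 ± 0.19 (95% interval -0.0080 to 0.79, adjusted p = 0.309).

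Elovl2, which lengthens the longest polyunsaturated chains (cluster 10408838), had 9.97, 10.14 and 10.10 in euthyroid mutants and 10.10, 9.82 and 10.03 in euthyroid controls. Hypothyroid mice had 9.64, 10.28 and 10.26 in mutants and 9.33, 9.64 and 9.05 in controls, where mutant replicate 5 lay just below control replicate 18. The difference was 0.08 ± 0.18 in euthyroid mice (adjusted p = 0.929) and 0.71 ± 0.18 in hypothyroid mice (adjusted p = 0.173), neither called. The averaged difference was 0.40 ± 0.13 (95% interval 0.12 to 0.68, adjusted p = 0.151). Without mutant hypothyroid replicate 5 the hypothyroid difference was 0.93 and was called (adjusted p = 0.0496).

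Elovl1, the elongase of very long saturated chains (cluster 10507539), had 7.74, 8.19 and 8.44 in euthyroid mutants and 8.05, 8.05 and 7.79 in euthyroid controls. Its hypothyroid values were 7.69, 7.98 and 7.95 in mutants and 7.68, 7.67 and 7.56 in controls. Hypothyroid mutants lay above their controls by a narrow margin, and the euthyroid groups overlapped. The averaged difference was 0.20 ± 0.12 (95% interval -0.052 to 0.45, adjusted p = 0.41).

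Whether 2 related enzymes changed unequally was tested on the difference of their log2 signals within each array. Genotypes were relabelled within thyroid state in an exact two-sided permutation test over 400 relabellings, which cannot give a p below 0.005. Over 4 pairs and 2 factors, 8 such tests were run and adjusted together. The mutant change of Elovl6 exceeded that of Elovl5 by 1.60 (p = 0.005, exact permutation, adjusted p = 0.04). The within-array difference ran from -1.15 to -0.25 in the 6 mutants and from -3.30 to -1.30 in the 6 controls, with no overlap. That test used the same signals in which Elovl6 was already called for genotype and Elovl5 was not, so it is not separate support. The change of Scd2 exceeded that of Scd1 by 1.10 (p = 0.015, exact permutation), which missed the threshold after adjustment (0.06) and overlapped, from -7.42 to -5.39 in mutants and from -7.88 to -7.16 in controls. After quantile normalization that difference was 1.15 (adjusted p = 0.04), and it passed at the same adjusted p without control hypothyroid replicate 17 (1.06) or mutant euthyroid replicate 4 (1.19). Whether the high signal of Scd1 or the low signal of Scd2 in controls bears on that difference was not tested. Fads2 against Fads1 (0.22, adjusted p = 0.104, exact permutation) and Elovl2 against Elovl5 (0.0076, adjusted p = 0.965, exact permutation) did not pass. For hypothyroid against euthyroid mice none of the 4 pairs passed. The differences were 0.78 for Scd2 against Scd1 and 0.68 for Elovl6 against Elovl5 (adjusted p = 0.08 each, exact permutation), -0.19 for Fads2 against Fads1 and -0.20 for Elovl2 against Elovl5. Elovl6 against Elovl5 passed (adjusted p = 0.04, exact permutation) without control hypothyroid replicate 17 (0.84) or mutant euthyroid replicate 4 (0.78).

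Hypothyroidism moved the desaturases in opposite directions. Averaged over genotypes, Scd2 (1.31 ± 0.13, adjusted p = 2.78e-05, limma) and Scd1 (0.53 ± 0.12, adjusted p = 0.0202) rose in hypothyroid liver, while Fads2 (-0.70 ± 0.10, adjusted p = 0.000815) and Fads1 (-0.51 ± 0.13, adjusted p = 0.0289) fell. None of the 4 elongases was called, with 0.55 for Elovl6, -0.13 for Elovl5, -0.29 for Elovl1 and -0.33 for Elovl2. At an unadjusted p under 0.05 in limma, that comparison counted 7 of the 8, all except Elovl5, against 24.7% of all clusters. Of all clusters 6.04% were called, 4.18% higher and 1.87% lower. The 6 hypothyroid mice lay below the 6 euthyroid mice without overlap for Fads2 alone among the 8, against 1.13% of all clusters in that direction, and none of the 8 lay wholly above (2.62% of all clusters). The Kupffer cell markers were lower on average in hypothyroid mice for 10 of 10, with 3 called, and their part in these results was not tested. The median difference of the 8 was -0.21, that of all clusters -0.020.

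Within each genotype fewer of these changes were called. In mutants, Scd2 rose 3.26-fold (1.70 ± 0.18, adjusted p = 0.000273) and Fads2 fell by 0.67 ± 0.14 (adjusted p = 0.034). In controls, Scd2 rose 1.89-fold (0.92 ± 0.18, adjusted p = 0.0228), Scd1 rose 1.76-fold (0.82 ± 0.17, adjusted p = 0.0326), and Fads2 fell by 0.73 ± 0.14 (adjusted p = 0.0204). Thus 1 of the 8 rose and 1 fell in mutants, against 0.652% and 0.454% of all clusters. In controls 2 rose and 1 fell, against 0.638% and 0.473% of all clusters. Control groups did not overlap for Scd1 and Scd2, hypothyroid above (8.78% of all clusters), and for Fads2, Elovl1 and Elovl2, hypothyroid below (7.88%). Mutant groups did not overlap for Scd1, Scd2 and Elovl6, hypothyroid above (14.6% of all clusters), and for Fads1 and Fads2, hypothyroid below (11.1%). Scd1 differed by 0.25 ± 0.17 in mutants (adjusted p = 0.484), Elovl6 by 0.54 ± 0.32 in mutants and 0.56 ± 0.32 in controls, and Fads1 by -0.58 ± 0.18 in mutants (adjusted p = 0.155) and -0.44 ± 0.18 in controls (adjusted p = 0.309).

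Most of these thyroid calls were lost without some single array. The averaged falls of Fads2 (-0.75 to -0.63) and rises of Scd2 kept their calls without any single array, as did the rise of Scd2 in mutants. The averaged call of Scd1 was lost without mutant hypothyroid replicate 7, mutant euthyroid replicate 4 or control euthyroid replicate 15 (largest adjusted p 0.0553). That of Fads1 held in 5 of 12 such fits, those without mutant hypothyroid replicate 7, mutant euthyroid replicate 3, control hypothyroid replicate 18, or control euthyroid replicate 13 or 14 (adjusted p 0.0111 to 0.0754 over the 12). In controls, the call of Scd2 was lost without hypothyroid replicate 18 (0.123) or 20 (0.0694) or euthyroid replicate 15 (0.0809). The call of Fads2 in controls was lost in 4 of 12 fits (without hypothyroid replicate 17 or 20 or euthyroid replicate 14 or 15, adjusted p up to 0.113), and that of Scd1 in 6 of 12 (without hypothyroid replicate 17 or 18 or euthyroid replicate 14 or 15 of the controls, or mutant hypothyroid replicate 6 or mutant euthyroid replicate 2, up to 0.15). In mutants, the call of Fads2 held in 5 of 12 (adjusted p up to 0.142), lost without each of the 6 mutant arrays in turn and without control hypothyroid replicate 20. With array SD as a covariate the averaged calls of Scd1 (adjusted p = 0.555) and Fads1 (0.25) were lost, as were those of Scd1 (0.221), Scd2 (0.144) and Fads2 (0.0728) in controls and of Fads2 in mutants (0.286).

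**Figure D3:**
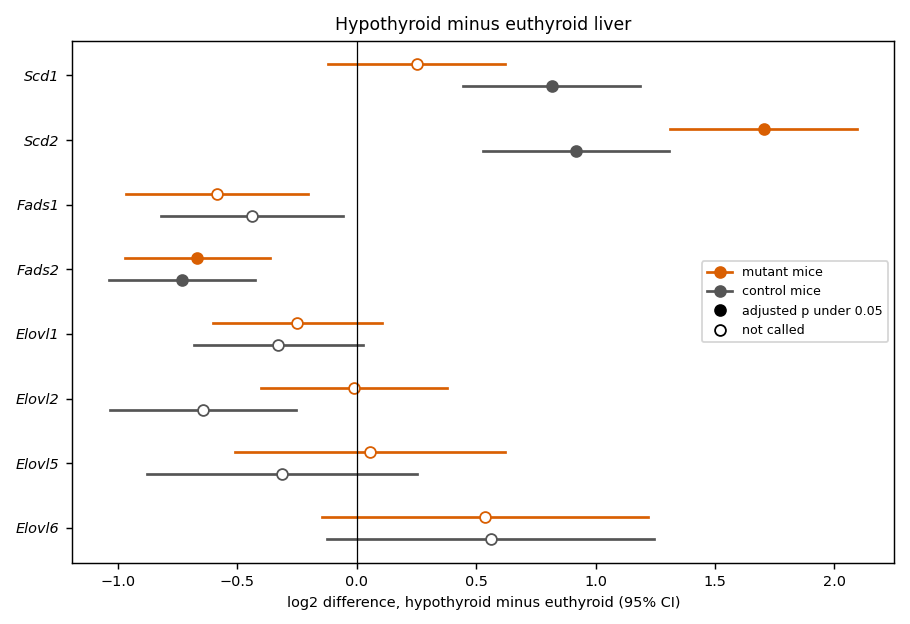
Log2 difference, hypothyroid minus euthyroid (x axis, with 95% confidence intervals of the limma fit), for the 8 genes (rows) in mutant and control mice. Scd2 and Fads2 are called (filled) in both genotypes, Scd1 in controls; Elovl2 differs by -0.01 in mutants and -0.64 in controls, not called.

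No gene's mutant effect was shown to differ between thyroid states. In the limma test of that difference 0 of the 8 and 0 of 21789 clusters were called (0% of clusters). At an unadjusted p under 0.05 it counted 3 of the 8 and 600 clusters (2.75%). The 3 were Scd2, whose mutant effect was larger by 0.79 ± 0.26 in hypothyroid mice, Elovl2, larger by 0.63 ± 0.26, and Scd1, smaller by 0.57 (difference -0.57 ± 0.25), each with an adjusted p of 1.00. For Elovl6 the difference was -0.024 ± 0.45, with a 95% interval from -0.99 to 0.94.

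**Figure D4:**
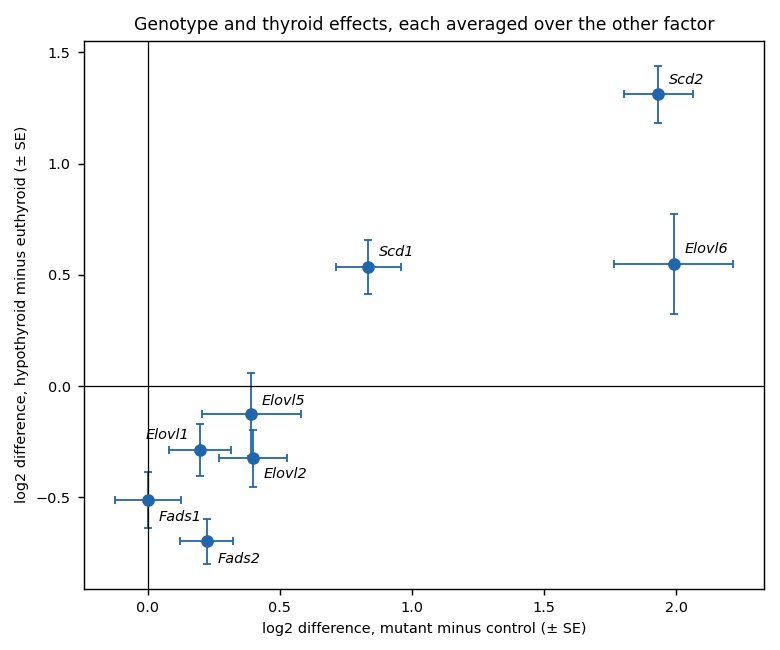
Averaged mutant effect (x axis, mutant minus control, log2) against averaged thyroid effect (y axis, hypothyroid minus euthyroid, log2), with SE, for the 8 genes. Scd2, Scd1 and Elovl6 lie to the upper right (1.93, 0.84 and 1.99 on the x axis), and Fads1 and Fads2 lie low on the y axis (-0.51 and -0.70).

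Within a group, single mice stood high or low for many of the 8 genes. Among hypothyroid mutants, replicate 7 was the highest for 5 genes and replicate 5 the lowest for 5. Among hypothyroid controls, replicate 18 was the highest for 7 of the 8, all except Elovl1, and replicate 20 was the lowest for 5. Among euthyroid controls, replicate 14 was the lowest for 5, and in euthyroid mutants no replicate was highest for more than 3.

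Most genes that supply palmitate to these enzymes also rose in mutants. Of 10 measured genes of palmitate supply (11 listed), 7 rose in the averaged mutant comparison and none fell, with a median difference of 1.15, against 0.904% of all clusters higher and a median of -0.015. Thrsp, a regulator of lipogenesis, rose by 2.12 ± 0.21, and malic enzyme, Me1, by 1.57 ± 0.16 (adjusted p = 0.000139 each, limma). The beta form of acetyl-CoA carboxylase, Acacb, rose by 1.36 ± 0.22, and fatty acid synthase, Fasn, by 1.30 ± 0.15 (adjusted p = 0.00723 and 0.000472, limma). These 4 calls were kept without any single array, and that of Acacb was lost with array SD as a covariate (adjusted p = 0.166). The count was 6 to 8 without single arrays and 3 with that covariate. In hypothyroid mice, averaged over genotypes, 2 of the 10 rose, against 4.18% of all clusters. They were Pgd, of the NADPH-making pentose phosphate pathway (0.79 ± 0.11, adjusted p = 0.000757), and ATP citrate lyase, Acly (0.54 ± 0.14, adjusted p = 0.0395). Without single arrays the call of Pgd held in all 12 fits and that of Acly in 5 of 12, and both were lost with array SD as a covariate (0.147 and 0.546). In the averaged mutant comparison 3 of the 8 desaturases and elongases rose and their median was 0.40.

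The rest of the elongation machinery was not called for the mutation. The elongase works with a reductase, a dehydratase and a second reductase, and the desaturases take electrons from cytochrome b5. Of 10 such genes 0 were called in the averaged mutant comparison by limma (2 at an unadjusted p under 0.05, against 16.7% of all clusters, median 0.10), with Hacd1 and Hacd2, dehydratases of the cycle, at 0.26 each (adjusted p = 0.188 and 0.182). Leaving out any single array gave 0 calls. In hypothyroid mice 2 of the 10 rose, against 4.18% of all clusters: Hacd3 (0.37 ± 0.091, adjusted p = 0.0284) and the electron donor Cyb5b (0.37 ± 0.10, adjusted p = 0.0449). Their calls held in 5 and 1 of the 12 fits without an array, and in neither case with array SD as a covariate.

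Among 9 other desaturases and elongases 0 were called for the mutation by limma (1 at an unadjusted p under 0.05, against 16.7% of all clusters, median -0.035), with Fads3 at -0.24 (adjusted p = 0.435). In hypothyroid mice 1 of the 9 rose and 1 fell, against 4.18% and 1.87% of all clusters. Elovl3, an elongase of saturated and monounsaturated chains, had the largest thyroid fall among the 17 desaturases and elongases measured, a log2 difference of -2.71 ± 0.31 (adjusted p = 0.000107). Its mean was 3.59 in hypothyroid mutants and 6.84 in euthyroid mutants, and 3.01 in hypothyroid controls and 5.18 in euthyroid controls. Both hypothyroid means lie below the array medians, so the size of the fall is a lower bound if signal there is not above background. The fall was called in each of the 12 fits without an array and in the 7 other alternatives. Its averaged mutant difference of 1.11 ± 0.31 was not called (adjusted p = 0.1), and was called without mutant euthyroid replicate 2 or control euthyroid replicate 13 (lowest adjusted p 0.0159). Elovl7 rose in hypothyroid mice by 0.48 ± 0.13 (adjusted p = 0.0441), at mean levels of 3.96 in hypothyroid and 3.48 in euthyroid mice, below the array medians, and held in 3 of 12 fits without an array.

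Genes that use the finished chains moved in part. Of 9, 3 rose in the averaged mutant comparison, against 0.904% of all clusters. They were Pnpla3, a lipid droplet protein (1.85 ± 0.18, adjusted p = 0.000126), Gpam, which starts glycerolipid synthesis (0.61 ± 0.097, adjusted p = 0.00634), and Agpat2, the next acyltransferase (0.56 ± 0.12, adjusted p = 0.0404, held in 4 of 12 fits without an array). In hypothyroid mice 3 of the 9 rose and 1 fell, against 4.18% and 1.87% of all clusters. Lpin1 (1.57 ± 0.32), Gpam (0.67 ± 0.097) and Lpin2 (0.61 ± 0.14) rose and Pnpla3 fell by 1.08 ± 0.18 (adjusted p = 0.00988, 0.000815, 0.0166 and 0.00214). The call of Lpin2 was lost without mutant euthyroid replicate 2 (0.05). With array SD as a covariate the mutant calls of Gpam (0.177) and Agpat2 (0.426) were lost, as were the thyroid calls of all 4. Gpam thus rose with both factors, as Scd1 and Scd2 did, while Pnpla3 rose with the mutation and fell with hypothyroidism.

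Of 5 measured peroxisomal genes (6 listed), which complete docosahexaenoate by chain shortening, 2 rose in mutants, against 0.904% of all clusters. They were Ehhadh (1.43 ± 0.15, adjusted p = 0.000237) and Acaa1b (0.75 ± 0.15, adjusted p = 0.0258). The call of Acaa1b held in 3 of 12 fits without an array. In hypothyroid mice 1 of the 5, Scp2, rose by 0.89 ± 0.14 (adjusted p = 0.0016, and 0.291 with array SD as a covariate), against 4.18% of all clusters. Of 5 measured acyl-CoA synthetases (7 listed) 0 were called for the mutation by limma (2 at an unadjusted p under 0.05, against 16.7% of all clusters), with 0.65 for Acsl4 (adjusted p = 0.0685), which was called without mutant hypothyroid replicate 5 or control euthyroid replicate 13, and 0.35 for Acsl5 (adjusted p = 0.184; 0.0358 without control euthyroid replicate 13). In hypothyroid mice 1 of the 5 synthetases, Acsl5, rose by 0.48 ± 0.13 (adjusted p = 0.0369, held in 3 of 12 fits without an array), against 4.18% of all clusters.

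Of 11 measured lipogenic regulators (12 listed), 1 rose in mutants, against 0.904% of all clusters: Mlxipl, which encodes ChREBP (0.62 ± 0.14, adjusted p = 0.0461). Of the 12 fits without an array it was called in 3, those without mutant hypothyroid replicate 5, control hypothyroid replicate 17 or control euthyroid replicate 13, and of the 7 other alternatives it was also called in 3. Srebf1, which encodes SREBP-1, differed by 0.30 ± 0.11 (adjusted p = 0.176), Nr1h3, which encodes LXR-alpha, by -0.021, and the receptor genes Thra and Thrb by -0.28 and 0.091, none called. In hypothyroid mice 0 of the 11 were called by limma (3 at an unadjusted p under 0.05, against 24.7% of all clusters), with Scap at -0.41 (adjusted p = 0.0612) and Srebf2 at -0.28 (adjusted p = 0.0735).

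**Figure D5:**
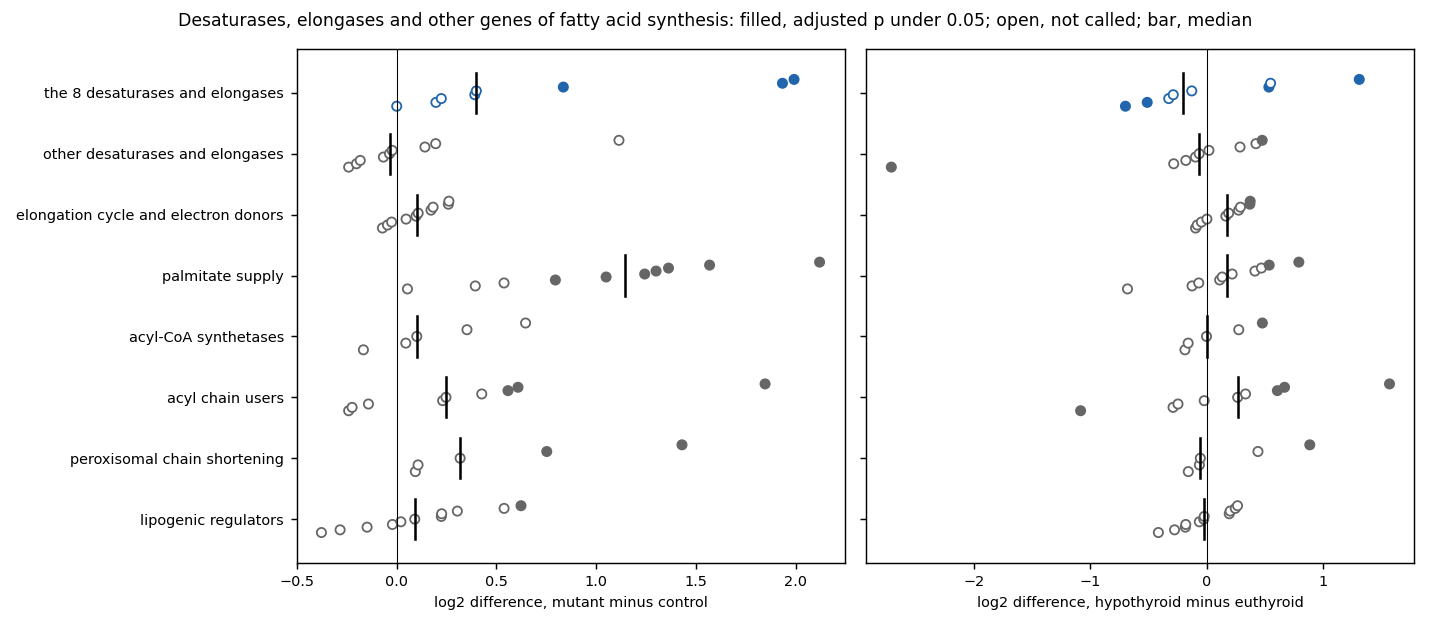
Log2 differences (x axis) of the 8 desaturases and elongases and of 7 lists of related genes (rows), mutant minus control on the left and hypothyroid minus euthyroid on the right, each averaged over the other factor. Filled points are called and bars are list medians. Palmitate supply has the highest median on the left (1.15).

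To find the patterns most like each gene, clusters were centred on their own mean and ranked by the root-mean-square difference over the 12 arrays. Nearest to Elovl6 were both clusters of Me1 (0.38 each, beside a spread of 1.11 for Elovl6 around its own mean) and then Ehhadh (0.40). Nearest to Scd2 were both clusters of Sytl5, a synaptotagmin-like gene (0.51 and 0.56, beside 1.202), and then Ehhadh (0.61). For Scd1 they were Gpam, Echdc1 and Micu2 (all 0.23, beside 0.55). For Fads2 they were Sh3pxd2a (0.14), Slc6a12 (0.16) and Lrrc8d (0.17), beside 0.39, and for Fads1 they were Gne (0.14), Cenpa (0.15) and Prss53 (0.16), beside 0.32. For Elovl2 they were Slc16a12 (0.15), Rad51d (0.16) and 9630013D21Rik (0.17), beside 0.36. For Elovl5 (0.40) they were Il18, Wdr60 and Dimt1 (0.21, 0.21 and 0.22), and for Elovl1 (0.25) Rangap1, Dck and Orm1 (0.12, 0.12 and 0.14). These are likenesses over 12 arrays that share their groups, and no test was made of them.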

How the data were processed

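Values are log2 signals made by the authors with RMA and deposited as 1 table, per the submitters' processing notes; version, options and genome build are not given there. Per the labels' protocols, column-purified total RNA was turned into terminally labelled cDNA for the arrays. No scan date or other batch was used here. Precision is set by 3 arrays a group.

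Clusters with exactly 1 symbol in the platform annotation were tested, and the cluster with the highest mean stood for a gene. limma 3.58.1 (R 4.3.3) fitted the 4 groups over 12 arrays (prior degrees of freedom 6.83, residual 8), and 7 comparisons were each adjusted by Benjamini-Hochberg. The script was tested on data simulated for euthyroid mutants against euthyroid controls, with 200 clusters changed. It recovered 5.5% of 1.5-fold, 83.5% of 2-fold and 99% of 4-fold changes. Most 1.5-fold changes were thus missed, and a gene not called here may still differ. Pairs of related enzymes were compared by exact permutation. Named genes were the 8, the 3 nearest patterns of each, and from 7 lists the most changed genes called in the averaged mutant comparison (2 as values where none was called); other named genes were chosen after their values were seen. Alternatives were quantile normalization, median centring, a filter on low clusters, testing all clusters, limma's trend, array SD as a covariate, fitting the compared groups only, and leaving arrays out. The genes, lists and alternatives were chosen with earlier results of these data known. No cluster of the altered gene itself was analysed here.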

Additional observations from a re-analysis of the deposited data

How the results depend on the processing

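No paired analysis was possible because the groups share no replicate numbers. Other clusters of the same symbol gave no value, since each of the 8 genes has 1 cluster. The cause of the changes below was not tested. Testing every cluster adjusts over more tests, and leaving out arrays uses fewer samples. Leaving out an array also raised some counts. Without control euthyroid replicate 13, 1866 clusters were called for the averaged mutation and 3579 for averaged hypothyroidism, against 248 and 1317 with all arrays.

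For the mutation averaged over thyroid states 3 of the 8 genes were called under each alternative except array SD as a covariate (2). With every cluster tested, 1 was called in euthyroid mutants (3 as reported), 1 in hypothyroid mutants (2), 2 for hypothyroidism averaged over genotypes (4), 1 for it in mutants (2) and 0 in controls (3). With array SD as a covariate the counts were 1 in hypothyroid mutants, and for hypothyroidism 2 averaged, 1 in mutants and 0 in controls. Median centring gave 1 for hypothyroidism in mutants. Leaving out both outlying arrays gave 1 in euthyroid mutants. Fitting the compared groups alone gave 1 for hypothyroidism in mutants and 1 in controls. In euthyroid mutants the call of Scd1 was lost with the compared groups alone, and that of Elovl6 with array SD as a covariate. Without both outlying arrays the calls of Scd1 for hypothyroidism, averaged and in controls, were lost. Quantile normalization added calls of Elovl2 for hypothyroidism, averaged and in controls. Without single arrays the counts ran from 1 to 3 for the mutation in each thyroid state, 0 to 3 for hypothyroidism in controls, 1 to 2 in mutants and 2 to 4 averaged.

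Over all clusters the calls without single arrays ran from 6 to 192 (28 as reported) for euthyroid mutants, 21 to 133 (57) for hypothyroid mutants, 107 to 1866 (248) for the averaged mutation, 89 to 620 (241) for hypothyroidism in mutants, 134 to 864 (242) in controls and 680 to 3579 (1317) averaged; other alternatives gave 10 to 45, 9 to 174, 41 to 259, 36 to 322, 135 to 313 and 181 to 1558 in that order.

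Quantile normalization gave 1.15 for Scd2 minus Scd1 by genotype (past the threshold) and -0.0063 for Elovl2 minus Elovl5. Without single arrays these ran from 0.997 to 1.19 and from -0.079 to 0.111, and Elovl6 minus Elovl5 by thyroid state from 0.523 to 0.843; the first and the last passed the threshold (adjusted p = 0.04, exact permutation) without control hypothyroid replicate 17 or mutant euthyroid replicate 4.

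Differences near 0 changed sign. The averaged mutant difference of Fads1 was -0.037 with quantile normalization, -0.070 with array SD and -0.11 without both outlying arrays; that of Fads3 was 0.13 with array SD. Elovl5 in hypothyroid against euthyroid mutants was -0.043, -0.14 and -0.14 under those 3 settings, and Elovl2 was 0.045 after centring. Elovl2 in euthyroid mutants was -0.050 with array SD. For the difference between thyroid states, Elovl6 was 0.00097 after centring, and without both outlying arrays Elovl6 was 0.15, Fads2 -0.056 and Elovl1 -0.0043. Without single arrays, ranges that crossed 0 were -0.0022 to 0.35 for Elovl1 in euthyroid mutants, -0.24 to 0.12 for Fads1 in hypothyroid mutants and -0.083 to 0.096 for it averaged, and for hypothyroidism -0.12 to 0.20 for Elovl2 in mutants, and for Elovl5 -0.14 to 0.22 in mutants, -0.64 to 0.039 in controls and -0.29 to 0.048 averaged. For the difference between thyroid states they were -0.31 to 0.044 for Fads1, -0.035 to 0.20 for Fads2, -0.11 to 0.24 for Elovl1 and -0.33 to 0.37 for Elovl6.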
